A study of Mus musculus with 2 samples.

Results

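The receptors through which colony-stimulating factors, interleukin-3, interleukin-6, stem cell factor and FLT3 ligand act on blood cells were examined in sorted mouse neutrophils. The genes were Csf3r, Csf1r, Csf2ra, Csf2rb, Csf2rb2, Il3ra, Kit, Flt3 and Il6ra. They were chosen by name and function rather than by their values, but with earlier results of these data known. They are 9 of 18193 genes that the arrays represent, and 16 probe sets are annotated to them, 15 to a single receptor gene and 1 to both Csf2rb2 and Csf2rb. A probe set is a group of short probes read out together as 1 value.

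The cells came from the bone marrow of mice with genotype Jdp2 KO, also written Jdp2-/- in the labels, and of mice with genotype Jdp2 WT, both of a strain given as C57BL/6 /129/J mixed. Neutrophils had been gated as CD11b+ cells with Ly6G and little Ly6C, and total RNA was labelled with biotin for Affymetrix arrays. Each genotype has 1 array, 2 in all, so no spread between mice could be estimated, no difference has a p-value, and the precision of all values is limited by the number of arrays. The labels give no age, no number of animals per array, and no statement of which part of Jdp2 was removed or in which cells. Values are log2 signals as deposited, and differences are the KO array minus the WT array, so a difference of 1 is 2-fold.

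Jdp2, which encodes a dimerisation partner of JUN proteins, did not read lower under the KO label. Its probe set 1450350_a_at read 12.38 on the KO array and 11.997 on the WT array, and its probe set 1424972_at read 5.40 on the KO array and 5.24 on the WT array. Where these probes lie relative to the deletion was not checked, so Jdp2 does not check the labels, and each direction is that of the arrays as labelled. The labelled cell type was checked against its markers. All 10 neutrophil marker genes on the arrays passed the level filter, their median difference was -0.0034, and the largest were Itgam (-0.43), Cxcr2 (0.24) and Ngp (0.18). Markers of other cells were not equal on the arrays. On the KO array, 6 of 7 promyelocyte and primary granule genes and 10 of 14 monocyte and macrophage genes were at least 2-fold higher. The share over all genes that passed the filter was 3.06%. Of the 14, 5 passed the filter through the KO array alone. With values under an array's median raised to it, 7 of the 14 and 6 of the 7 were at least 2-fold higher, beside 222 of all passing genes. The 6 include Ctsc at 1.05, whose passing probe sets ran from -0.61 to 1.05.

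Growth factor receptors of blood cells fall into 2 structural classes. Csf3r, Csf2ra, Csf2rb, Csf2rb2, Il3ra and Il6ra encode cytokine receptor chains, which have no kinase of their own and signal through bound JAK kinases and STAT factors. Csf1r, Kit and Flt3 encode receptor tyrosine kinases. In the neutrophil lineage G-CSF drives production and release of cells from the marrow, GM-CSF prolongs survival and primes the mature cell, and KIT and FLT3 belong mainly to progenitors.

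No receptor gene reached 2-fold in either direction. A gene was represented by its strongest probe set and passed the level filter where the higher of its values lay at or above the median of all probe sets on that array, which was 5.67 on the KO array and 5.65 on the WT array. Of the 9 receptor genes 8 passed, and 0 of the 8 were at least 2-fold higher and 0 at least 2-fold lower, beside 3.06% and 2.33% of the 11168 passing genes. Counts of 0 among 8 genes do not set the receptors apart from these shares. The passing receptor genes had 4 differences above 0 and 4 below 0, with a median of 0.016, beside -0.039 over all passing genes. Their median absolute difference was 0.15, beside 0.24 over all passing genes. These sets were not matched for signal level, so the medians do not show that receptors differed less than genes of like level. In bulk RNA of a sorted population, fewer cells of a type and less RNA per cell cannot be told apart.

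**Figure D1:**
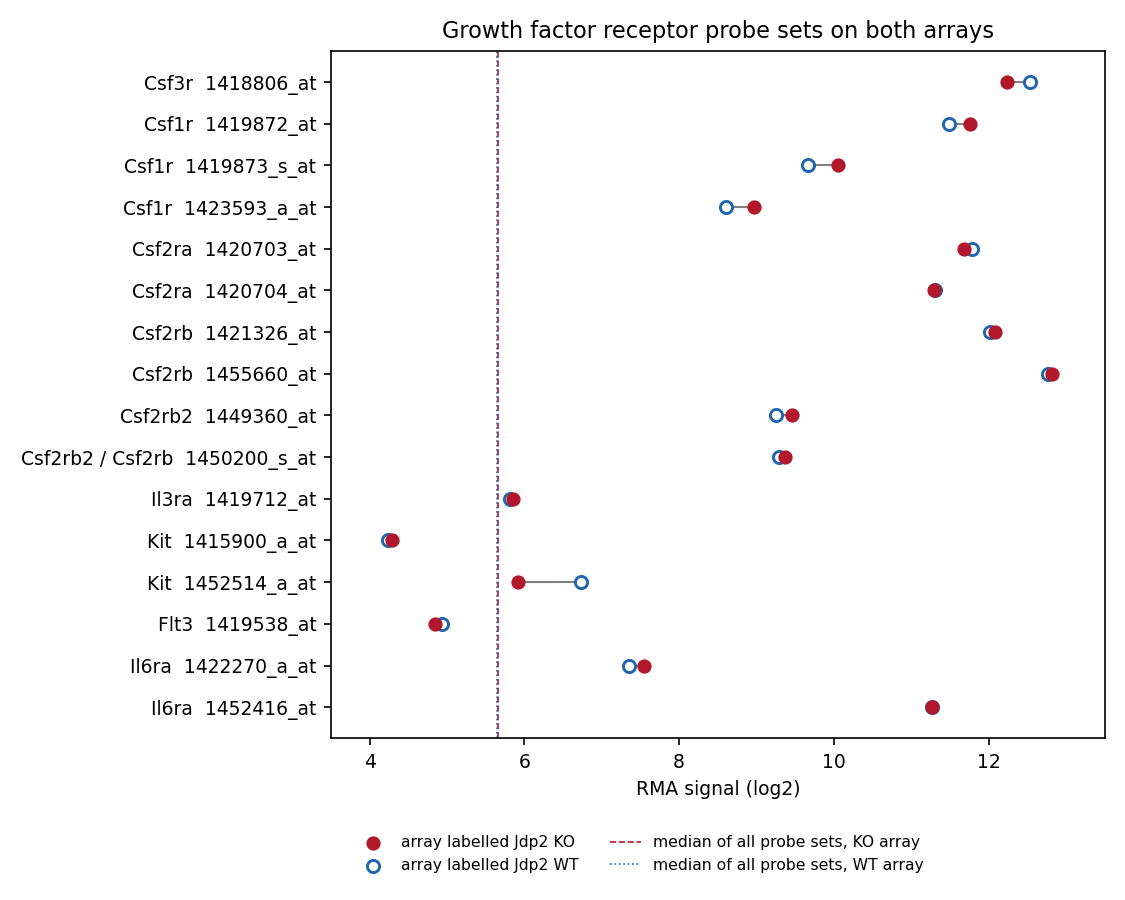
Log2 RMA signal (horizontal axis) of each of the 16 receptor probe sets (rows) on the array labelled Jdp2 KO (filled) and the array labelled Jdp2 WT (open), with dashed and dotted lines at the median of all probe sets on each array. Values of different probe sets are not comparable as RNA amounts. Points of a probe set lie close together except for Kit probe set 1452514_a_at, at 5.91 on the KO array and 6.74 on the WT array.

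Csf3r encodes the receptor for G-CSF, the main growth factor of the neutrophil lineage. Its probe set, 1418806_at, read 12.24 on the KO array and 12.54 on the WT array, far above the array median on both. The difference of -0.30 means that the WT value was 1.23-fold that of the KO array. Among the 994 probe sets within 0.5 of the mean level of Csf3r on the log2 scale, the median difference was -0.0031. Of these, 4.63% had a difference as low or lower, and 12.4% had a difference of the same size or larger in either direction. Csf3r has no second probe set to set beside it, and the difference is smaller than the SD of 0.36 seen between passing probe sets of the same gene, pooled over 4867 genes. That SD comes from probe sets that share RNA and does not measure how mice vary.

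Csf1r encodes the receptor for CSF1 and interleukin-34, the growth factors of monocytes and macrophages. All 3 of its probe sets read higher on the KO array. Probe set 1419872_at read 11.76 on the KO array and 11.48 on the WT array, a difference of 0.27. Probe set 1419873_s_at read 10.06 on the KO array and 9.67 on the WT array, a difference of 0.39. Probe set 1423593_a_at read 8.97 on the KO array and 8.61 on the WT array, a difference of 0.37. The mean over these probe sets was 0.34 ± 0.062 (SD over 3 probe sets on the same RNA), and the differences correspond to between 1.21-fold and 1.31-fold. Among probe sets within 0.5 of the level of each, 9.31%, 6.12% and 12.3% had a difference as high or higher, in the order given. Counted in either direction, 19.4%, 17.3% and 34.4% had a difference of the same size or larger.

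Most monocyte and macrophage markers moved the same way as Csf1r, and their median lay further from 0. Of the 15 such genes on the arrays, 14 passed the level filter, 13 of these had a difference above 0, and their median difference was 1.21, with F13a1 (2.43), Ms4a6c (1.69) and Mrc1 (1.64) as the largest. F13a1 was at 1.70 and Ms4a6c at 0.82 with low values raised, and the mean over both probe sets of Ms4a6c was 0.92. Mpeg1 went the other way at -0.33, and Cx3cr1 (0.25) and Cd68 (0.23) lay under the 0.27 of Csf1r. The sum of the signals of all 15 genes was 13.47 on the KO array and 13.04 on the WT array on the log2 scale, and Irf8 lay under the median on both arrays. RMA values have no true zero, so no marker is at 0. The part of such cells in the Csf1r difference was not tested.

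The GM-CSF receptor pairs an alpha chain, encoded by Csf2ra, with the common beta chain, encoded by Csf2rb. For Csf2ra, probe set 1420703_at read 11.68 on the KO array and 11.78 on the WT array, and probe set 1420704_at read 11.29 on the KO array and 11.31 on the WT array. These differences were -0.094 and -0.014. For Csf2rb, probe set 1421326_at read 12.08 on the KO array and 12.01 on the WT array, and probe set 1455660_at read 12.81 on the KO array and 12.77 on the WT array. These differences were 0.069 and 0.043. Both chains were therefore read nearly alike on the arrays by every probe set, within 1.07-fold.

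Csf2rb2 encodes a second beta chain, found in mice, that serves interleukin-3 alone, whereas the chain of Csf2rb also serves GM-CSF and interleukin-5. The genes are close relatives and neighbours in the gene table of assembly GRCm38.p6, with 1 annotated gene, the microRNA gene Mir7676-1, between them. The probe set of Csf2rb2, 1449360_at, read 9.46 on the KO array and 9.26 on the WT array, a difference of 0.21. The probe set shared with Csf2rb, 1450200_s_at, read 9.37 on the KO array and 9.29 on the WT array, a difference of 0.077. Signal of the relatives may be split or shared between these probes, so the value of Csf2rb2 is uncertain.

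Il3ra encodes the alpha chain for interleukin-3, best known on basophils and plasmacytoid dendritic cells. Its probe set 1419712_at read 5.85 on the KO array and 5.82 on the WT array, just above the array medians, with a difference of 0.033. Mast cell and basophil markers were mostly weak: of 8 genes on the arrays 6 lay under the median on both (Cpa3, Fcer1a, Ms4a2, Mcpt8, Tpsb2 and Cma1). The other two were Hdc (-0.16) and Gata2 (0.072), and another passing probe set of Gata2 was at -1.48. The summed signal of the 8 genes was 12.54 on the KO array and 12.68 on the WT array on the log2 scale. Nearly all of that sum was Hdc, at 12.48 on the KO array and 12.64 on the WT array.

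Il6ra encodes the chain that binds interleukin-6, which then engages the signalling chain gp130, encoded by Il6st. Its stronger probe set, 1452416_at, read 11.27 on both arrays, with a difference of -0.0011. Its other probe set, 1422270_a_at, read 7.55 on the KO array and 7.35 on the WT array, a difference of 0.20. The probe sets of Il6ra thus differed by 0.20 from each other, and none was far from 0. Il6st did not pass the level filter, at 5.63 on the KO array and 5.25 on the WT array.

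Kit encodes the receptor for stem cell factor, a marker of early progenitors and mast cells, and it had the largest difference of the receptor genes. Probe set 1452514_a_at read 5.91 on the KO array and 6.74 on the WT array, a difference of -0.82, so that the WT value was 1.77-fold that of the KO array. The other probe set, 1415900_a_at, read 4.29 on the KO array and 4.23 on the WT array, under the median on both, with a difference of 0.056. The probe sets disagreed, and their mean difference was -0.38. At the level of the stronger probe set 6.07% of 5752 probe sets had a difference as low or lower. Counted in either direction, 12.7% had a difference of the same size or larger.

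Flt3 encodes the receptor for FLT3 ligand, carried by multipotent progenitors and by dendritic cells and their precursors. Its probe set 1419538_at read 4.85 on the KO array and 4.94 on the WT array, under the median of both arrays, and Flt3 was the receptor gene that did not pass the level filter. At such values signal cannot be told apart from background, and the difference of -0.093 is given as a value alone.

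Markers of the cells that carry KIT and FLT3 were mixed. Of 10 stem and progenitor genes on the arrays 8 passed, with 4 differences above 0, 4 below 0 and a median of -0.027. Mecom (1.34) and Slamf1 (1.02) were at least 2-fold higher on the KO array, beside 3.06% of all passing genes. Hlf differed by -0.61. Slamf1 passed through the KO array alone and came to 0.25 with low values raised. With the mean of all probe sets Mecom came to 0.61 and Slamf1 to 0.21, and Slamf1 was at -0.13 with the median of its probe sets. Cd34 and Procr lay under the median on both arrays. The summed signal of the 10 genes was 10.08 on the KO array and 9.99 on the WT array on the log2 scale. Of 10 dendritic cell genes 8 passed, with a median of 0.36, and the summed signal was 10.22 on the KO array and 9.74 on the WT array. The antigen presentation genes Cd74 (1.09), H2-Ab1 (1.04) and H2-Eb1 (0.97) had the largest differences of that list, with H2-Ab1 at 0.38 without shared probe sets. H2-Aa, another antigen presentation gene, was the lowest of the list at -0.76, and its passing probe sets ran from -0.76 to 1.36. The part of these cells in the values of Kit and Flt3 was not tested.

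**Figure D2:**
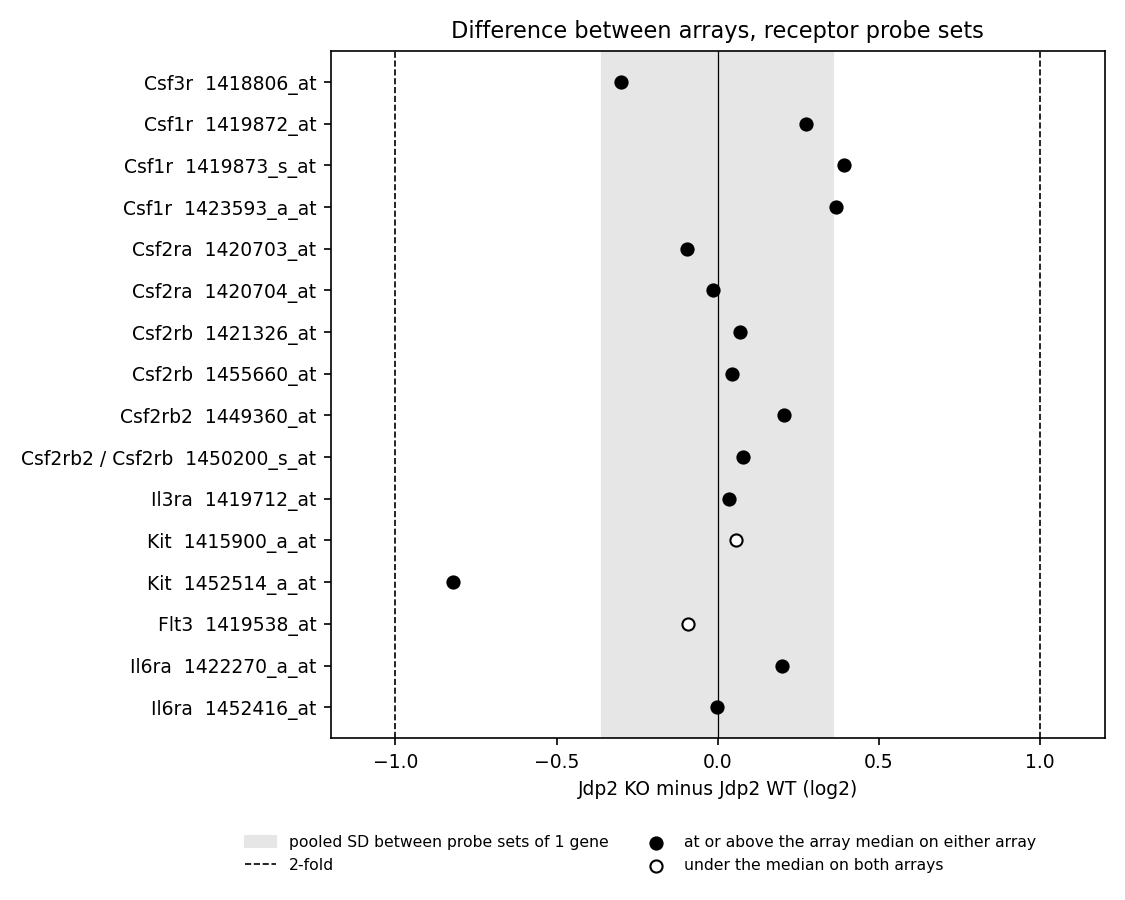
Difference between the KO array and the WT array (horizontal axis, log2) for each of the 16 receptor probe sets (rows), filled where a value reached the array median. Grey marks 0.36 on either side of 0, the pooled SD between probe sets of a gene, and dashed lines mark 2-fold. Beyond the grey band lie 2 of the 3 Csf1r probe sets and 1 of Kit, and no probe set reaches 2-fold.

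Across the 16 probe sets, 10 differences lay above 0 and 6 below. The difference was at most 0.1 in size for 9 probe sets and exceeded the pooled SD of 0.36 for 3, those of Csf1r at 0.39 and 0.37 and that of Kit at -0.82. Of the 5 genes with more than 1 probe set, Csf1r, Csf2ra and Csf2rb had all of theirs on the same side of 0, while Kit and Il6ra had probe sets on both sides. Among the 8 passing genes 7 lay within 0.4 of 0, beside 70.1% of all passing genes.

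Short sequences before the transcription start are shown for 3 receptor genes, because JDP2 is known to bind the AP-1 site TGACTCA, called TRE, and the related site TGACGTCA, called CRE. The 250 bases before the start come from RefSeq, build GRCm38.p6, where 7 of the 9 genes have a window, Kit with 2 overlapping windows. Csf1r and Csf2rb have no entry in that table. The stretches are chr4:126024409-126024658 on the plus strand for Csf3r, the main receptor of the lineage, chr19:61228419-61228668 on the minus strand for Csf2ra, the window with a CRE match, and chr5:75574737-75574986 on the plus strand for Kit, the gene with the largest difference. Capitals mark matches on either strand to TRE, to CRE, to GAGGAAG, a core of PU.1 sites, and to the letters TTGNNNCAA. The last pattern is not the C/EBP consensus, and C/EBP sites were not searched.
Csf3r: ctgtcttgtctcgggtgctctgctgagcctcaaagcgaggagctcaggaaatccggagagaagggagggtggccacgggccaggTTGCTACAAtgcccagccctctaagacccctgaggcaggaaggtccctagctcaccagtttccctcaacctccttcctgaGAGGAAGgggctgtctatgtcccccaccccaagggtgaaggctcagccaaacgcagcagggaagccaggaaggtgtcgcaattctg
Csf2ra: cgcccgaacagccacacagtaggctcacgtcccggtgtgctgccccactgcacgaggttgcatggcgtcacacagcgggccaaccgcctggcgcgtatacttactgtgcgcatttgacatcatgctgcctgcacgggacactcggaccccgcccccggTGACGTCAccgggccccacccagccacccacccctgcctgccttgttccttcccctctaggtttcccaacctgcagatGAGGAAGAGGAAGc
Kit: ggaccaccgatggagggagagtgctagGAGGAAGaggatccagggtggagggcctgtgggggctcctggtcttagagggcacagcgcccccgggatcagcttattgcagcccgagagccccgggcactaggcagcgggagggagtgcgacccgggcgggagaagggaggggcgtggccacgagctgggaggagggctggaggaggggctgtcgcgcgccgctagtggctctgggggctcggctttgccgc

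TRE matched in none of the 7 genes' windows, beside 4.46% of 32851 windows of the same length. CRE matched in Csf2ra, from base -92 to base -85 counted from the start, beside 1.55% of all windows. GAGGAAG matched in Csf3r, Csf2ra, Kit and Csf2rb2, beside 10.6% of windows, and in Csf2ra its 2 matches share a base. TTGNNNCAA matched in Csf3r, beside 5.02% of windows. Csf2ra, with the CRE match, had differences of -0.094 and -0.014. A match is a description of letters and shows no binding, and a window without a match says nothing of sites elsewhere.

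Of the genes for the receptors' ligands and related cytokines, 11 were on the arrays and 3 passed the level filter. Kitl, encoding stem cell factor, differed by 0.23, Csf1 by 0.081 and Osm, encoding oncostatin M, by -0.16. Passing probe sets of Kitl ran from -0.83 to 0.23 and those of Csf1 from -0.24 to 0.34. The genes for G-CSF (Csf3), GM-CSF (Csf2), interleukin-3 (Il3), interleukin-5 (Il5), interleukin-6 (Il6) and interleukin-34 (Il34) all lay under the median on both arrays. No ligand gene that passed reached 2-fold.

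Partner and related receptor chains numbered 14 on the arrays, of which 8 passed, 0 reached 2-fold in either direction, and the median difference was -0.16. Il10ra, the ligand-binding chain for interleukin-10, read 5.12 on the KO array and 5.71 on the WT array, a difference of -0.59. With its value on the KO array raised to the median of that array, the difference came to 1.03-fold. Il4ra, the interleukin-4 receptor chain, differed by 0.38, with passing probe sets from -0.10 to 0.38. Pdgfrb, a receptor tyrosine kinase related to CSF1R and KIT, differed by -0.36.

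Of 27 kinase and adaptor genes on the arrays 26 passed the level filter and 0 reached 2-fold. Their differences lay below 0 for 19 genes (73.1%), beside 55.1% of all passing genes. The median was -0.10, beside -0.039 over all passing genes, and came to -0.057 with the trend of the difference on signal level removed. Pik3cb, a catalytic subunit of phosphoinositide 3-kinase, differed by -0.44, and Syk, a tyrosine kinase, by -0.37, with passing probe sets of Syk from -0.59 to 0.22. Jak2, the kinase bound to the common beta chain, read 11.15 on the KO array and 10.81 on the WT array, and both of its probe sets were higher on the KO array, at 0.34 and 0.45. Among the STAT genes acting below G-CSF and GM-CSF receptors, named after their values were seen, Stat3 differed by -0.053, Stat5a by 0.0067 and Stat5b by 0.16. Passing probe sets of Stat3 ran from -0.48 to 0.20 and those of Stat5b from -0.10 to 0.16.

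Inhibitors of receptor signalling and genes of receptor turnover had a median difference of -0.036 over 20 passing genes of 21, with 0 past 2-fold. Spred1 (0.83) and Spry2 (0.78), which restrain signalling from RAS to ERK, were the highest, and Cish (-0.50), a STAT5-induced inhibitor of cytokine receptors, was the lowest. Passing probe sets of Spred1 ran from -0.096 to 1.34. Socs3, the inhibitor that binds the G-CSF receptor and gp130, read 9.51 on the KO array and 9.88 on the WT array, and its 3 probe sets ran from -0.48 to -0.27. Adam17, encoding a protease known to shed CSF1R and the interleukin-6 receptor from the cell surface, had 3 probe sets between 0.13 and 0.33. Socs3 and Adam17 were named after their values were seen.

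Transcription factors known to act on these receptor genes or on granulocyte maturation had a median difference of 0.0047 over 20 passing genes of 23, with 0 past 2-fold. Klf4 (0.74) and Egr2 (0.72), both known from monocytes and macrophages, were the highest, and Tal1 (-0.71), a factor of progenitors and of red cell and mast cell precursors, was the lowest. Spi1, encoding PU.1, differed by -0.14 and Cebpa by -0.35, named after their values were seen. Genes known to respond to the ligands had a median of 0.028 over 15 passing genes of 16. Of these 1 was at least 2-fold higher, the survival gene Bcl2, which read 5.99 on the KO array and 4.80 on the WT array, a difference of 1.19 that came to 1.26-fold with the WT value raised to the array median and to 0.20 without shared probe sets. Bcl3 (-0.67), a nuclear partner of NF-kB, and Pim3 (-0.54), a kinase of the PIM family, were the lowest.

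**Figure D3:**
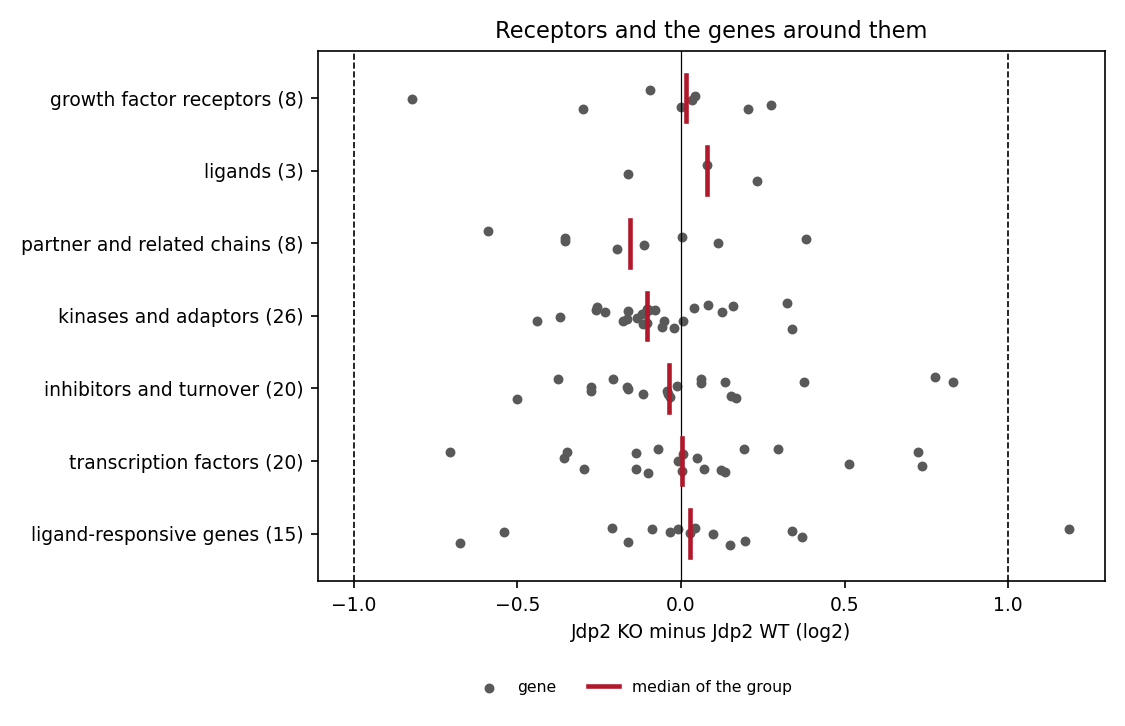
Difference between the KO array and the WT array (horizontal axis, log2) for genes that passed the level filter, grouped by role (rows, number of genes in brackets), with a red bar at the median and dashed lines at 2-fold. Points are spread vertically so that they can be seen. The median is 0.016 for the 8 receptor genes and lies between -0.16 and 0.081 for the 6 groups around them.

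**Figure D4:**
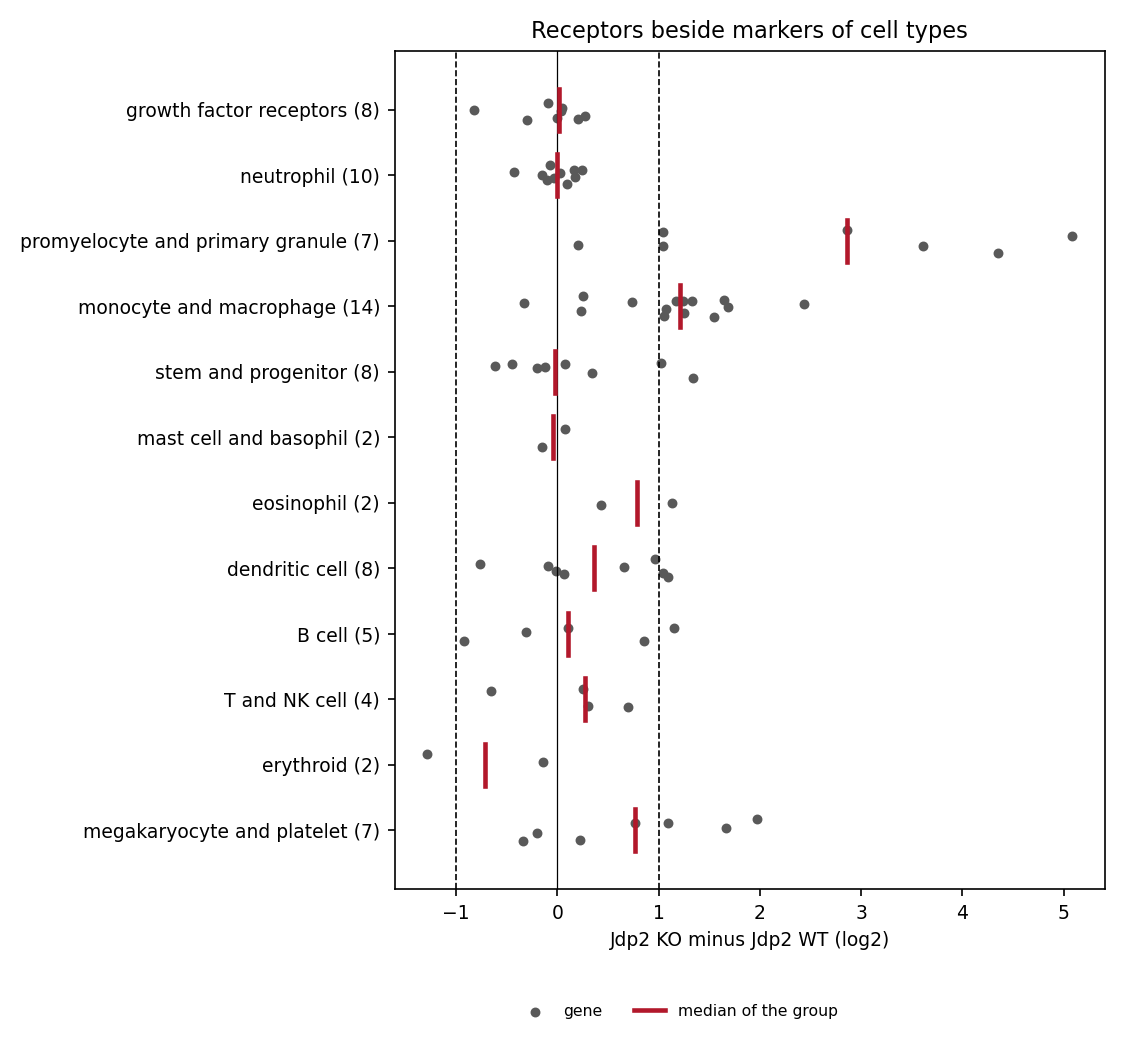
Difference between the KO array and the WT array (horizontal axis, log2) for the 8 receptor genes and for marker genes of each cell type that passed the level filter (rows, number of genes in brackets), with a red bar at the median and dashed lines at 2-fold. Promyelocyte and primary granule genes (median 2.86) and monocyte and macrophage genes (median 1.21) lie to the right of the receptor genes and of the neutrophil markers (median -0.0034).

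The promyelocyte and primary granule genes were led by Mpo (5.09), Ctsg (4.36) and Elane (3.62). The summed signal of the list was 14.46 on the KO array and 13.94 on the WT array on the log2 scale. Most of that sum was Srgn, at 13.98 on the KO array and 13.78 on the WT array. Ctsg and Prtn3 lay under the median on the WT array, and Ctsg came to 2.73 with low values raised. The median of that list, 2.86, came to 1.05 where both values had to reach the median and to 1.62 with low values raised.

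Megakaryocyte and platelet markers had a median of 0.76 over 7 genes, 5 above 0 and 2 below. Ppbp (1.97), Pf4 (1.66) and Gp1bb (1.09) were at least 2-fold higher on the KO array, while Itga2b (-0.34) and Itgb3 (-0.20) lay below 0. T and NK cell markers had a median of 0.28 over 4 genes, with Nkg7 (0.70), Cd8a (-0.66) and Cd3d (0.30) as the largest. Cd8a passed through the WT array alone and came to -0.28 with low values raised. B cell markers had a median of 0.10 over 5 genes, which ran from -0.62 to 0.61 over the settings tried. Their members lay between Ighm (-0.93) and Igll1 (1.15). Igll1 passed through the KO array alone and came to 0.68 with low values raised. Passing probe sets of Ighm ran from -1.45 to 0.065. The 2 passing eosinophil markers were Siglecf (0.43) and Ccr3 (1.13). Ccr3 passed through the KO array alone and came to 0.25 with low values raised. The 2 passing erythroid markers were Car2 (-1.29) and Slc4a1 (-0.14). Whether any of these cells contributed to the receptor values was not tested.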

How the data were processed

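Per the submitters' processing notes, the authors summarised the arrays with RMA, and the deposited values are log2 signals per probe set. The version and steps of RMA were not given in the sources used here. Sorted, the values of both arrays lay within 0.117 of each other. Weak RMA values hold background, which understates folds. Of 45101 probe sets, 64 controls were left out. Platform annotation gave 34945 of the rest 1 gene symbol, updated through Entrez identifiers for 34741. The 932 with several symbols were not used, apart from the probe set shared by Csf2rb2 and Csf2rb. With 1 array per genotype, no test was possible, and a log2 difference of 1 was the size rule. The procedure was tested on simulated arrays with known shifts, placed only in strongly read genes. The noise there was smaller than the SD between probe sets of a gene here, so the test says nothing of weak genes. Receptor genes, 6 lists of related genes and 11 marker lists were chosen with earlier results of these data known. Named genes were all receptor genes, members of the 6 lists past 2-fold, the 3 largest differences of each list and each marker list, and Jdp2. Others, such as H2-Aa and Prtn3, were chosen after their values were seen. Likeness of pattern was not used, since 2 arrays give 1 difference per gene. A total of 10 alternative settings were tried. Work was done in Python 3.11.15 with pandas 2.3.3 and statsmodels 0.14.6.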

Additional observations from a re-analysis of the deposited data

How the results depend on the processing

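The counts of 0 receptor genes past 2-fold held under all 10 settings, and 88 of 90 receptor differences moved by less than the pooled SD of 0.36. The exceptions were Kit with the mean and with the median of its probe sets, at -0.38 in both. Many of these values could not move, because a changed level filter leaves the difference of each gene as it is. Combining probe sets cannot move a gene with 1 probe set, and raising low values leaves values above the median unchanged. The sameness of the counts, differences and signs was therefore partly fixed in advance. Signs of Csf3r, Csf1r, Csf2ra, Csf2rb, Csf2rb2, Il3ra and Kit did not change in any setting, with Csf3r between -0.32 and -0.30 and Csf1r between 0.26 and 0.37. Il6ra ran from -0.017 to 0.099 and changed sign in 4 settings, and Flt3 ran from -0.11 to 0.016, above 0 in 1 setting. The median of the passing receptor genes, 0.016, ran from -0.0011 to 0.056. Genes at least 2-fold higher and lower numbered 342 and 260, against 110 and 87 with the level filter at the 75th percentile, 184 and 145 with both values required at or above the median, and 183 and 171 where the probe sets of a gene were averaged. With the median difference of all probe sets 192 were higher, and with low values raised to the array median 222. The stricter filters leave fewer genes and the raised values shrink differences by construction; for the averaged and median probe sets the cause was not tested. Median differences changed sign in at least 1 setting for ligands (-0.16 to 0.16), partner chains (-0.22 to 0.058), transcription factors (-0.072 to 0.011) and ligand-responsive genes (-0.021 to 0.035), whereas kinases and adaptors (-0.14 to -0.057) stayed below 0. Marker medians that changed sign were those of stem and progenitor (-0.43 to 0.36), mast cell and basophil (-0.45 to 0.15), B cell (-0.62 to 0.61) and neutrophil genes (-0.058 to 0.0064). Those of dendritic cell genes ran from 0.024 to 1.09, promyelocyte genes from 1.05 to 2.87 and monocyte genes from 0.94 to 1.25. The progenitor marker Slamf1, at 1.02, reversed to -0.13 with the median difference of its probe sets; the cause was not tested. No paired analysis was possible because each genotype has 1 array, and none could be left out for the same reason.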

Other observations

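Other cytokine receptor genes, gathered by symbol after the data had been seen, showed the following. Of 24 further interleukin receptor genes on the arrays 12 passed the level filter, and none reached 2-fold by its strongest probe set. Of the 12, 4 lay above 0, where 55.1% of all passing genes lay below 0, and the median difference was -0.098. Il15ra differed by 0.45, with passing probe sets from 0.45 to 1.03. Il13ra1, encoding a chain for interleukin-4 and interleukin-13, read 11.39 on the KO array and 10.44 on the WT array, a difference of 0.95, and its 4 passing probe sets ran from 0.85 to 1.36. Il1r1, the signalling receptor for interleukin-1, read 5.31 on the KO array and 6.02 on the WT array, which came to 1.28-fold with the KO value raised to the array median. Il1r2, the decoy receptor for interleukin-1, differed by 0.22. Of 19 Tnfrsf genes 9 passed, with a median of -0.0021, and 1 was at least 2-fold higher. This was Tnfrsf13b, encoding a receptor known mainly from B cells, at 7.37 on the KO array and 6.06 on the WT array. Markers of monocytes and macrophages (median 1.21) were higher on the same array as Il13ra1 and Tnfrsf13b, and their part in these values was not tested.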
